A study of Mus musculus with 4 samples.

Results

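The integrin and laminin genes of MC38 tumours were compared between vanoxerine and saline. They were taken as every protein-coding gene whose symbol begins with Itga or Itgb, followed by a digit or by D, E, L, M, V or X, or with Lama, Lamb or Lamc, followed by a digit. This gave 42 genes of the 54115 measured, of which 21805 were protein-coding. They were 18 integrin alpha chains, 9 integrin beta chains (Itgb2l among them), 11 laminin chains and 4 genes that share the prefix but encode no subunit (Itgb1bp1, Itgb1bp2, Itgb3bp and Itgbl1). The tumours grew in mice from injected MC38 cells, a mouse colon adenocarcinoma line. Vanoxerine, an inhibitor of the dopamine transporter, was injected into the peritoneum at 25 mg/kg on 10 consecutive days (2 libraries), and saline on the same schedule (2 libraries). Neither strain nor sex nor age of the mice is given in the sources used here. Nothing in the labels ties the 2 libraries of a group to different mice, so the p-values reflect only how far those libraries spread, and that spread may be technical.

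Integrins are receptors made of an alpha and a beta chain that span the cell membrane and tie the cytoskeleton to matrix proteins or to ligands on other cells. The beta2 chain (Itgb2) and its alpha chains are made by leukocytes, where they serve adhesion, migration and, for the Itgam product, uptake of complement-coated particles. Laminins are trimers of an alpha, a beta and a gamma chain that form the sheet of basement membranes around vessels, epithelia and muscle, and several matrix integrins bind them.

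The libraries held 67289273 to 75748162 estimated reads, and replicates lay apart by a median of 0.046 in vanoxerine and 0.098 in saline (absolute log2 ratio of CPM). Of 6 epithelial markers tested, in tumours labelled as adenocarcinoma, 3 were called higher (Cdh1, Epcam and Krt19) and 1 lower (Cldn4), with a median log2 fold change of 0.85. Cdh1 had 25.4 and 27.6 CPM in vanoxerine and 11.3 and 13.5 CPM in saline, and Epcam, Krt8 and Krt18 stood at 1.59 to 4.22 CPM in vanoxerine and 0.838 to 2.29 CPM in saline. CPM are read counts scaled to a common library size after TMM correction. Over all genes tested, edgeR's quasi-likelihood test called 6916 of 18758 (36.9%) at an adjusted p under 0.05, 3933 higher (21.0%) and 2983 lower (15.9%). With upper-quartile factors 2895 were higher and 4525 lower, with library totals 3556 higher and 3435 lower, and with log2(TPM + 1) 4094 higher and 870 lower. Tumours were measured whole, so fewer cells of a type and less RNA per cell cannot be told apart.

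Vanoxerine tumours had higher levels of most of the abundant integrin genes and lower levels of several laminin genes. Of the 42 genes 41 passed the low-count filter (Lamc3 did not), and 22 were called, 14 higher and 8 lower, with a median log2 fold change of 0.09 against -0.01 over all genes. At 1.5-fold or more, 11 were called higher (10.8% of all genes) and 5 lower (6.73%). The groups did not overlap for 34 of the 41, against 70.7% of all genes. The calls were 13 without vanoxerine replicate 1, 14 without vanoxerine replicate 2, and 14 with log2(TPM + 1), where 12 were higher and 2 lower. The leukocyte integrins held 6 genes called higher and 0 lower of 9, with a median of 0.56. The matrix integrins held 8 higher and 3 lower of 18 (median 0.13), and the laminin chains 0 higher and 4 lower of 10 tested (median -0.31). Without vanoxerine replicate 1 or 2, 6 matrix integrins were called, all higher, and without vanoxerine replicate 1 the laminin calls were 2. The difference between these lists was not tested.

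**Figure D1:**
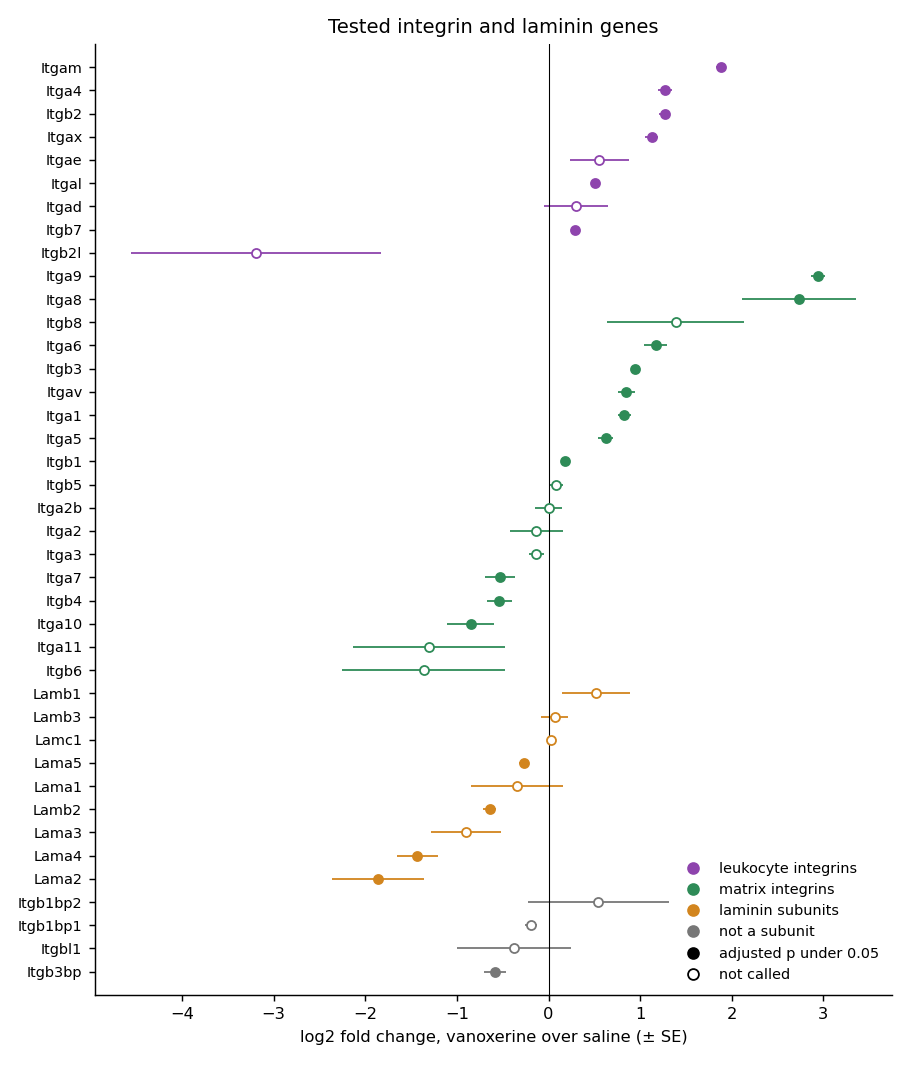
Log2 fold change of vanoxerine over saline with its standard error for 40 of the 41 tested genes, grouped by list, with filled points called by edgeR at an adjusted p under 0.05. Leukocyte integrins called lie right of 0, and laminin chains called lie left of it.

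Itgam, which encodes the alphaM chain (CD11b) of the complement receptor of macrophages and granulocytes, lies on chromosome 7 from 128062640 to 128118491 (forward strand, GRCm38). It had 471 and 474 CPM in the vanoxerine libraries, against 125 and 132 CPM in the saline libraries. Both vanoxerine libraries stood well above both saline libraries, 3.68-fold on average, with a log2 fold change of 1.88 ± 0.05 (SE, n = 2 each; edgeR adjusted p = 9.62e-06). Its neighbour Itgax (chromosome 7, 128129547 to 128150657, forward strand) starts 11.1 kb past the end of Itgam and encodes alphaX (CD11c), found on dendritic cells and many tissue macrophages. It had 63.1 and 63.2 CPM in vanoxerine, against 27.5 and 30.4 CPM in saline, a log2 fold change of 1.13 ± 0.07 (adjusted p = 0.000143, edgeR). Itgad, the next alpha chain gene after a further 3.72 kb, was low, with 1.39 and 1.32 CPM in vanoxerine and 0.903 and 1.29 CPM in saline, and was not called (adjusted p = 0.549, edgeR).

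Because Itgam and Itgax are neighbours that rose together, the 250 bases before each transcription start are shown, 5′ to 3′, from RefSeq on GRCm38.p6, at chr7:128062390-128062639 and chr7:128129300-128129549, forward strand.
Itgam: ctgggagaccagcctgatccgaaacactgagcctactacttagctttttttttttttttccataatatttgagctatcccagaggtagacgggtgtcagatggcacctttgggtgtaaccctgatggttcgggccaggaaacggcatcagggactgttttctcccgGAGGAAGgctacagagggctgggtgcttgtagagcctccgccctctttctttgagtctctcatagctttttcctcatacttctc
Itgax: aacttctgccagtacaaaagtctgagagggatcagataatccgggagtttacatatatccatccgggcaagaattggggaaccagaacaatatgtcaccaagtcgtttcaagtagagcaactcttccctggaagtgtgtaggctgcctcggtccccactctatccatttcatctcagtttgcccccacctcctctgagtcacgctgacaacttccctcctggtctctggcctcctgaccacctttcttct
Capitals mark GAGGAAG, a form of the purine-rich core bound by the myeloid factor PU.1, searched on both strands. Other forms were not searched, and a shorter match such as GAGGAA is not marked. The Itgam window holds GAGGAAG 84 bases before the start, and again, on the opposite strand, 31 bases after the start. The Itgax window does not hold these letters. In windows of 250 bases before to 50 after the start the motif was found for 3 of 5 leukocyte integrin windows (Itgam, Itgb7 and Itgb2l), 4 of 16 matrix integrin windows, 2 of 6 laminin windows and 4477 of all 32851 windows (13.6%). RefSeq windows were matched for 24 of the 38 subunit genes. A match is a description of the letters and not a measured binding site.

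The beta2 chain gene Itgb2, the shared partner of these alpha chains, rose with them. It had 379 and 373 CPM in vanoxerine, against 148 and 165 CPM in saline, with a log2 fold change of 1.27 ± 0.06 (edgeR adjusted p = 6.61e-05). Itgal, which encodes alphaL (CD11a) of the lymphocyte integrin LFA-1, lies 728 kb before Itgam and changed less. Its values were 181 and 186 CPM in vanoxerine and 129.5 and 129 CPM in saline, a log2 fold change of 0.50 ± 0.04 (adjusted p = 0.0005, edgeR). The groups of both genes did not overlap.

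The mix of beta2 partners differed between the groups. Levels per length are given as TPM, which scales reads to transcript length and library, summed over transcripts of at least 2000 bases, because short transcripts with few reads took up much of the TPM of some genes. On this scale Itgam made up 65.7% and 65.4% of the TPM of the 4 beta2 alpha chains in vanoxerine, against 44.4% and 45.6% in saline. Itgal made up 24.5% and 24.9% in vanoxerine and 45.0% and 42.8% in saline. The share of Itgax was similar, at 9.66% and 9.52% in vanoxerine and 10.5% and 11.6% in saline. There were 2.68 and 2.63 TPM of Itgam for each TPM of Itgal in vanoxerine, against 0.988 and 1.07 in saline. The summed alpha chains per TPM of Itgb2 moved little, with ratios of 1.21 and 1.24 in vanoxerine and 1.22 and 1.13 in saline. With 2 against 2 libraries an exact two-sided permutation test of such a share cannot go below p = 0.333.

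**Figure D2:**
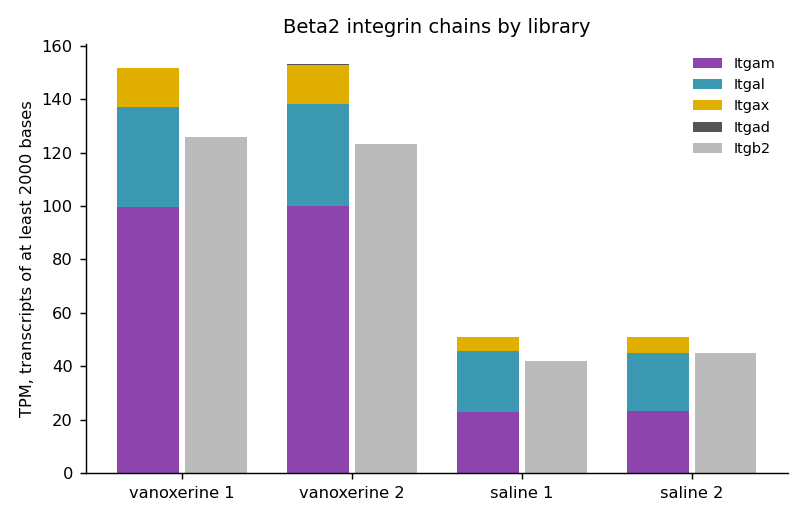
Levels of the beta2 integrin chains in each library, in TPM over transcripts of at least 2000 bases, with the alpha chains stacked beside Itgb2. Itgam is the largest alpha chain in both vanoxerine libraries, at 65.7% and 65.4%, and is close to Itgal in both saline libraries.

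The alpha4 and beta7 chains guide lymphocytes and other leukocytes to VCAM1 and to the gut. Itga4 (chromosome 2, 79255426 to 79333123, forward strand) had 80.6 and 79.5 CPM in vanoxerine, against 35.4 and 30.8 CPM in saline, and rose by 1.27 ± 0.08 on the log2 scale (edgeR adjusted p = 0.000135). Its partner Itgb7 stood at 76.2 and 75.1 CPM in vanoxerine and 61.9 and 61.9 CPM in saline, a smaller difference of 0.29 ± 0.05 (adjusted p = 0.0053, edgeR). That call was lost with upper-quartile factors (0.16), with a transcript length offset (0.13) and without either vanoxerine library, and the authors' deposited table gives 0.13 (adjusted p = 0.341). Itgae, the alphaE chain of lymphocytes within epithelia, was low, at 2.04 and 2.46 CPM in vanoxerine and 1.19 and 1.87 CPM in saline, and was not called. Itgb2l, a beta2-like gene, had 0 and 0.0607 CPM in vanoxerine and 0.38 and 0.197 CPM in saline, and was not called (adjusted p = 0.122, edgeR).

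Markers of several leukocyte types moved with these integrins. All 10 macrophage markers were called higher, with a median log2 fold change of 2.50 and a summed level of 4961 and 4964 CPM in vanoxerine against 1093 and 1137 CPM in saline. Dendritic cell markers were higher in 6 of 8 (67.9 and 70.9 CPM summed in vanoxerine, 22.6 and 28.6 CPM in saline) and NK cell markers in 4 of 6 (805 and 791 CPM in vanoxerine, 597 and 600.2 CPM in saline). T cell markers were higher in 2 and lower in 3 of 9 (472 and 453 CPM summed in vanoxerine, 506 and 525 CPM in saline). Of 4 B cell markers 1 was higher (18.8 and 18.8 CPM summed in vanoxerine, 9.23 and 8.76 CPM in saline). That marker was Cd79b, at 12.7 and 11.4 CPM in vanoxerine and 1.71 and 1.60 CPM in saline. The higher B cell sum rests on this gene, and the other 3 markers were not called. Mast cell markers were higher in 5 of 6, with 106 and 104 CPM summed in vanoxerine and 24.5 and 24.8 CPM in saline. Neutrophil markers were lower in 5 of 8, with 582 and 575 CPM summed in vanoxerine and 1011 and 1062 CPM in saline. The part of these cell types in the integrin levels was not tested.

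**Figure D3:**
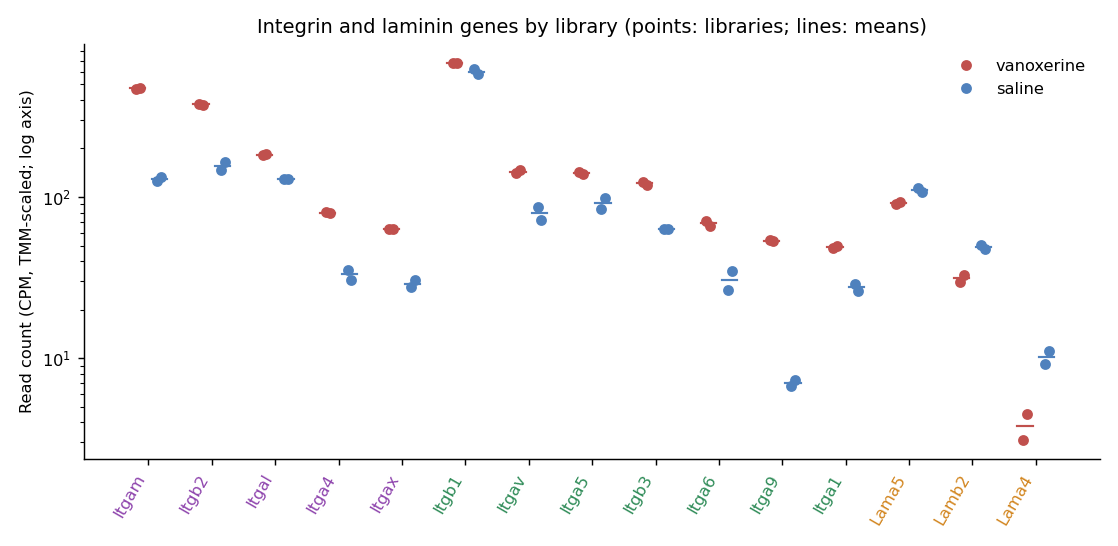
CPM on a log axis in each library for the subunit genes named by rule and Itgal, Itgb1 and Lama5, vanoxerine left of saline, with lines at the group means. The rule names only genes whose groups do not overlap, and those of Itgal, Itgb1 and Lama5 do not overlap either. Among the genes shown, Itga9 has the widest gap on the log axis, at 53.1 to 54.0 CPM in vanoxerine and 6.71 to 7.28 CPM in saline.

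Among matrix integrins the largest rise was that of Itga9 (chromosome 9, 118606690 to 118901003, forward strand), whose alpha9 chain pairs with beta1 and binds tenascin C, osteopontin and VCAM1. Itga9 had 54.0 and 53.1 CPM in vanoxerine, against 6.71 and 7.28 CPM in saline. The vanoxerine libraries lay 7.66-fold above saline on average, with a log2 fold change of 2.94 ± 0.08 (edgeR adjusted p = 1.1e-05), and between 2.72 and 3.26 over 16 alternatives. On the TPM scale of long transcripts its level was 6.06 ± 0.21 TPM in vanoxerine and 0.721 ± 0.04 TPM in saline (SD, n = 2 each), rank 16 among the subunit genes in vanoxerine and rank 25 in saline. Its longest transcript, Itga9-201, held 82.5% and 80.6% of its reads in vanoxerine and 87.1% and 89.1% in saline. A shorter transcript, Itga9-202 (1935 bases), held 605 and 602 reads in vanoxerine, against 56.6 and 56.7 reads in saline.

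The laminin receptor chain alpha6 and the collagen receptor chain alpha1 were higher as well. Itga6 had 71.4 and 66.3 CPM in vanoxerine, against 26.5 and 34.8 CPM in saline, a log2 fold change of 1.17 ± 0.13 (edgeR adjusted p = 0.00119). A transcript annotated without a coding sequence, Itga6-203, held 54.5% and 57.8% of its reads in vanoxerine and 78.7% and 61.1% in saline. The beta4 partner of alpha6, Itgb4, which joins it in the hemidesmosomes of epithelia, was lower: it had 9.11 and 7.39 CPM in vanoxerine and 11.9 and 12.1 CPM in saline, a log2 fold change of -0.54 ± 0.14 (adjusted p = 0.0262, edgeR). The Itgb4 call was lost under log2(TPM + 1), without either vanoxerine library and under the length offset. Itga1 had 48.5 and 49.6 CPM in vanoxerine, against 29.0 and 26.3 CPM in saline, a log2 fold change of 0.83 ± 0.07 (adjusted p = 0.000493, edgeR). Itga2, which encodes the other widely expressed collagen receptor chain and lies 20995 bases from Itga1 on chromosome 13, had 2.07 and 1.58 CPM in vanoxerine and 1.79 and 2.20 CPM in saline, with overlapping groups.

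Itga5 and Itgb3, chains of receptors for fibronectin and vitronectin, were also higher. Itga5, the alpha chain of the classical fibronectin receptor, had 144 and 139 CPM in vanoxerine, against 84.1 and 99.1 CPM in saline, a log2 fold change of 0.63 ± 0.08 (edgeR adjusted p = 0.00237). Itgb3, which pairs with alphaV and, in platelets, with alphaIIb, had 124 and 119 CPM in vanoxerine, against 63.2 and 63.1 CPM in saline, a log2 fold change of 0.95 ± 0.05 (adjusted p = 8.02e-05, edgeR). The platelet partner Itga2b stood at 6.00 and 6.75 CPM in vanoxerine and 6.24 and 6.49 CPM in saline, with vanoxerine on both sides of saline. Of the platelet and megakaryocyte markers 1 of 6 tested was called, Pf4, which macrophages can also express, and Gp1ba, Gp9 and Gp6 were under 1 CPM in every library. Ppbp, another platelet gene, had 7.21 and 5.98 CPM in vanoxerine and 4.82 and 4.04 CPM in saline (adjusted p = 0.0537, edgeR). The part of platelets in the Itgb3 and Itga2b levels was not tested.

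Itgav, the alpha chain shared by the receptors with beta1, beta3, beta5, beta6 and beta8, had 141 and 147 CPM in vanoxerine, against 87.3 and 72.3 CPM in saline. Its log2 fold change of 0.85 ± 0.09 (edgeR adjusted p = 0.00115) was not called with a transcript length offset (0.20, adjusted p = 0.638) or with log2(TPM + 1) (0.47, adjusted p = 0.306), and the authors' deposited table gives 0.16 (adjusted p = 0.546). For this gene 61.8% of the TPM came from transcripts under 2000 bases that held 6.26% of its reads. Over its long transcripts Itgav stood at 22.9 ± 0.97 TPM in vanoxerine and 10.2 ± 1.05 TPM in saline (SD, n = 2 each). Its partner Itgb5 had 89.4 and 92.6 CPM in vanoxerine and 79.5 and 92.2 CPM in saline and was not called (adjusted p = 0.455, edgeR). Itgb6 and Itgb8, which activate latent TGF-beta together with alphaV, were under 1 CPM in every library, and neither was called.

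Itgb1, the partner of most matrix alpha chains, was the most abundant subunit gene in both groups, at 192 ± 1.09 TPM in vanoxerine and 139 ± 4.87 TPM in saline over long transcripts (SD, n = 2 each). By read count it had 678 and 679 CPM in vanoxerine, against 618 and 578 CPM in saline, a log2 fold change of 0.18 ± 0.05 (edgeR adjusted p = 0.0251). This call was lost with upper-quartile factors (0.05), with library totals and without either vanoxerine library. The summed TPM of the alpha chains that can pair with beta1 was 0.529 and 0.526 of that of Itgb1 in vanoxerine, against 0.326 and 0.348 in saline. This sum includes Itga4 and Itgav, which also pair with other beta chains. It also holds Itga6-203, annotated without a coding sequence, at 16.0 and 15.7 TPM in vanoxerine and 7.16 and 7.35 TPM in saline. Itgb2 came next in both groups, at 125 ± 1.82 TPM in vanoxerine and 43.5 ± 2.20 TPM in saline. Itgam followed in vanoxerine (99.8 and 100.2 TPM) and stood at rank 4 in saline (22.7 and 23.2 TPM), where its level and that of Itgal (22.4 ± 0.85 TPM) lay within their spread.

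The other matrix alpha chains were low or did not rise. Itga3, a laminin receptor chain of epithelia, had 16.5 and 17.5 CPM in vanoxerine and 18.5 and 18.8 CPM in saline and was not called (adjusted p = 0.278, edgeR). The muscle laminin receptor chain Itga7 fell by 0.53 ± 0.16 on the log2 scale (4.87 and 6.04 CPM in vanoxerine, 7.76 and 7.96 CPM in saline, edgeR adjusted p = 0.048). The cartilage collagen receptor chain Itga10 fell by 0.85 ± 0.26 (1.92 and 1.82 CPM in vanoxerine, 3.93 and 2.82 CPM in saline, edgeR adjusted p = 0.0475). Both calls lay near the threshold. The Itga7 call was lost in 4 of 16 alternatives and that of Itga10 in 8, both of them without either vanoxerine library, and Itga10 was at -0.05 under log2(TPM + 1). The authors' deposited table gives Itga7 as -0.85 (adjusted p = 0.000267) and Itga10 as -0.19 (adjusted p = 0.559). Itga8, a chain of mesenchymal cells, was called higher at 0.809 and 0.911 CPM in vanoxerine against 0.17 and 0.0842 CPM in saline (2.74 ± 0.62), but turned to -0.79 under the length offset and to -0.12 under log2(TPM + 1). Itga11, a collagen receptor chain of fibroblasts, was under 0.4 CPM in every library and was not called.

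Among the laminin alpha chains, Lama4 was the only chain called lower in every alternative. Lama4 (chromosome 10, 38965515 to 39110188, forward strand) encodes alpha4, a chain of vessel and fat basement membranes. It had 3.09 and 4.48 CPM in vanoxerine, against 9.25 and 11.1 CPM in saline, so that both vanoxerine libraries lay below both saline libraries. The log2 fold change was -1.43 ± 0.22 (edgeR adjusted p = 0.00419), a 2.69-fold lower level, and Lama4 was called lower in all 16 alternatives, with values from -3.17 with the length offset to -1.18 without vanoxerine replicate 1. The authors' deposited table gives -3.11 (adjusted p = 8.41e-30), with a base mean of 728 that is 1.45 times the mean read count here (502.5). A short transcript, Lama4-207, held 0% and 0% of its reads in vanoxerine and 13.4% and 8.23% in saline.

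Lama5, the alpha5 chain of most adult basement membranes, was by far the main alpha chain. It made up 90.0% and 86.3% of laminin alpha chain TPM over long transcripts in vanoxerine, against 81.4% and 76.9% in saline. Its read count was lower, with 90.3 and 93.6 CPM in vanoxerine and 114 and 108 CPM in saline, a log2 fold change of -0.27 ± 0.05 (edgeR adjusted p = 0.0106) that was not called under log2(TPM + 1) or without either vanoxerine library. It was at -0.77 under the length offset, and the authors' deposited table gives -0.73 (adjusted p = 1.54e-06). Over long transcripts its TPM did not separate the groups, at 6.49 ± 0.20 in vanoxerine and 6.32 ± 0.36 in saline (SD, n = 2 each). The reads of its long transcript, Lama5-201, were nonetheless fewer in vanoxerine. They were 5626 and 5679 there and 7479 and 6705 in saline, before scaling to library size. Lama2, the alpha2 chain of muscle and nerve, was at 0.217 and 0.395 CPM in vanoxerine and 1.23 and 0.997 CPM in saline. It fell by 1.86 ± 0.50 on the log2 scale (adjusted p = 0.0323, edgeR) and was not called with the length offset, with log2(TPM + 1) or without either vanoxerine library. Lama1, the chain of the embryo, and Lama3, the chain of skin and other epithelia, were under 3 CPM in every library and were not called. For Lama1 the authors' deposited table gives -0.79 with an SE of 3.9 (adjusted p = 0.0214), and a base mean 2.11 times the mean read count here.

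Of the beta and gamma chains 1 was called. Lamb2 (chromosome 9, 108479736 to 108490530, forward strand), the beta2 laminin chain of muscle, kidney and vessel walls, had 29.9 and 32.6 CPM in vanoxerine, against 50.2 and 47.3 CPM in saline. Its log2 fold change was -0.64 ± 0.07 (edgeR adjusted p = 0.00132), but -0.54 with the length offset (adjusted p = 0.122) and -0.29 with log2(TPM + 1) (adjusted p = 0.356), so that neither setting called it. Lamc1, the gamma chain of most laminins, stood at 161 and 165 CPM in vanoxerine and 158 and 161 CPM in saline, a log2 fold change of 0.03 ± 0.04 (adjusted p = 0.629, edgeR). Lamb3, a beta chain of skin and other epithelia, had 8.25 and 10.0 CPM in vanoxerine and 9.29 and 8.14 CPM in saline, with overlapping groups, and was not called (adjusted p = 0.769, edgeR). Of 3 keratinocyte markers tested 1 was lower and Krt5 had 0 reads in every library.

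Lamb1, the beta1 laminin chain, had 79.9 and 33.1 CPM in vanoxerine and 36.8 and 42.3 CPM in saline, so that the vanoxerine libraries differed from each other more than the groups did. It was not called (edgeR adjusted p = 0.338), but was at 1.03 (adjusted p = 0.0025) without vanoxerine replicate 2 and at 0.64 (adjusted p = 0.0369) without saline replicate 2. The authors' deposited table gives it a base mean of 7035, which is 2.08 times the mean read count here (3383), and a log2 fold change of -0.20 (adjusted p = 0.0743). That ratio had a median of 1.0 over all genes. Reads counted there for Lamb1 may be missing from the sum here, which was not tested. No direction is drawn from the Lamb1 sum. The ratio was also high for Lama1 (2.11), Lama4 (1.45), Itga8 (1.31) and Itga6 (1.21), whose sums here may be incomplete too. The summed TPM of all laminin chains over all transcripts was 109 and 89.7 in vanoxerine and 118 and 109.6 in saline, a ratio of 0.874. Over long transcripts without Lamb1 it was 34.2 and 35.9 in vanoxerine and 32.9 and 31.5 in saline, a ratio of 1.09. Over all transcripts without Lamb1 the ratio was 0.83, so the direction of the summed TPM depended on which transcripts were summed. By read count the laminin chains, Lamb1 among them, summed to 388 and 353 CPM in vanoxerine and 392 and 393 CPM in saline.

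Other basement membrane genes were lower in the same tumours. Of 15 partners tested 9 were called lower and 0 higher, with a median log2 fold change of -0.46. The proteoglycan genes Hspg2 (105 and 111 CPM in vanoxerine, 142 and 148 CPM in saline; -0.42 ± 0.05) and Agrn (-0.51 ± 0.05) fell. So did the collagen IV gene Col4a1 (-0.62 ± 0.05) and Sparc (148 and 150.5 CPM in vanoxerine, 253.5 and 271 CPM in saline; -0.81 ± 0.05), which encodes a collagen-binding matrix protein. The laminin linker nidogen, Nid1, named after its values were seen, was at 6.08 and 5.77 CPM in vanoxerine and 21.0 and 20.7 CPM in saline (-1.81 ± 0.10). The highest edgeR adjusted p of these 5 genes was 0.00194. The other nidogen gene of this list, Nid2, did not change. It had 17.7 and 18.4 CPM in vanoxerine and 18.1 and 18.3 CPM in saline (-0.01 ± 0.08, edgeR adjusted p = 0.913).

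Markers of vessel, stromal and muscle cells were mostly lower in these tumours, and those of epithelium were not. Endothelial markers were called lower in 6 of 9 and higher in 1, with a median of -1.65 and 78.5 and 84.0 CPM summed in vanoxerine against 124.5 and 119 CPM in saline. Fibroblast markers were lower in 6 of 8 and higher in 1 (median -0.97), with 582 and 596 CPM summed in vanoxerine and 807 and 826 CPM in saline, though their summed TPM was 466 and 485 in vanoxerine and 422.5 and 416 in saline. Thy1 (286 and 292 CPM in vanoxerine, 205 and 226 CPM in saline) was the marker called higher. It held most of that summed TPM, with a mean of 375 TPM in vanoxerine and 247 TPM in saline, so the higher sum rests on this gene. Mural and smooth muscle markers were lower in 4 of 8, with 27.6 and 27.2 CPM in vanoxerine and 44.7 and 52.4 CPM in saline. Skeletal muscle markers were lower in 3 and higher in 1 of 6, with 33.5 and 30.6 CPM in vanoxerine and 48.0 and 45.4 CPM in saline. Epithelial markers, 3 of 6 tested higher and 1 lower, summed to 35.4 and 37.4 CPM in vanoxerine and 17.6 and 20.6 CPM in saline. The part of these cells in the laminin levels was not tested.

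The ligands of the integrins went both ways. Of 12 leukocyte integrin ligands tested 3 were higher and 1 lower (median 0.38). Icam1, which beta2 integrins bind, had 91.2 and 91.3 CPM in vanoxerine, against 38.1 and 39.5 CPM in saline (1.23 ± 0.05), and Vcam1, bound by alpha4 and alpha9 integrins, 251 and 242 CPM in vanoxerine, against 85.0 and 85.7 CPM in saline (1.53 ± 0.05). The junction gene F11r (0.45 ± 0.21) and the complement gene C3 (0.11 ± 0.05) were not called. Of 12 matrix ligands tested 3 were higher and 4 lower (median -0.16). The fibronectin gene Fn1 fell to 670.3 and 672 CPM in vanoxerine, against 1017 and 1049 CPM in saline (-0.62 ± 0.04), while its receptor chains Itga5 and Itga4 rose. The osteopontin gene Spp1 was slightly lower (-0.22 ± 0.04), and the thrombospondin gene Thbs1 (0.95 ± 0.04) and Tgfb1 (0.93 ± 0.05) were higher.

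Genes that act on the inner face of integrins were mostly higher. Of 25 activation and adhesion genes tested 17 were called higher and 6 lower, with a median of 0.54. The small GTPase gene Rap1b, an integrin activator, had 475 and 473 CPM in vanoxerine, against 201.5 and 166 CPM in saline (1.37 ± 0.09), and its close relative Rap1a rose by 0.36 ± 0.08. The focal adhesion genes Zyx (0.65 ± 0.05) and Actn4 (0.19 ± 0.04) were higher. The kindlins, which bind beta chain tails, were chosen after their values were seen: Fermt3, the kindlin of blood cells, had 181 and 176 CPM in vanoxerine, against 74.3 and 66.4 CPM in saline (1.34 ± 0.07, edgeR adjusted p = 6.84e-05). Fermt2, the kindlin of most other cells, was at 18.1 and 21.3 CPM in vanoxerine and 31.7 and 27.4 CPM in saline (-0.59 ± 0.12, edgeR adjusted p = 0.0109), and Fermt1, the epithelial kindlin, had 0 reads in every library.

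**Figure D4:**
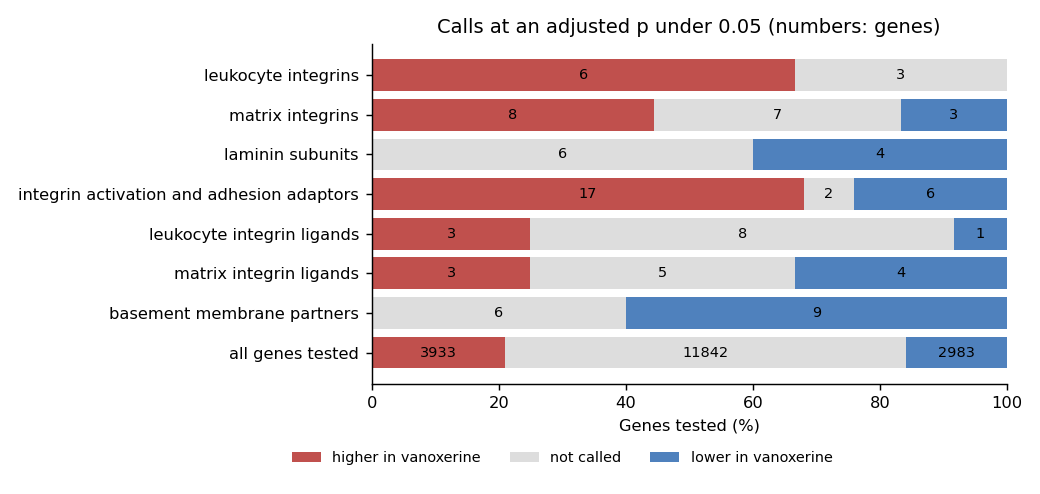
Share of tested genes called higher, not called or called lower in vanoxerine for each list, with numbers of genes in the bars and all 18758 tested genes at the bottom. Leukocyte integrins and adhesion adaptors hold 6 of 9 and 17 of 25 higher calls, and laminin chains and basement membrane partners hold 4 of 10 and 9 of 15 lower calls.

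The 4 genes that share the prefix without being subunits gave 1 call. Itgb3bp, which encodes a centromere protein, had 6.56 and 6.48 CPM in vanoxerine, against 9.97 and 9.63 CPM in saline, a log2 fold change of -0.59 ± 0.12 (edgeR adjusted p = 0.0124), not called without either vanoxerine library. Itgb1bp1, which encodes a protein that binds the beta1 tail, had 42.2 and 39.6 CPM in vanoxerine and 46.9 and 46.6 CPM in saline (adjusted p = 0.0544, edgeR). It was called lower with upper-quartile factors (-0.33), with library totals (-0.24) and in 6 further alternatives, and the authors' deposited table gives -0.41 (adjusted p = 0.00154). Itgb1bp2 and Itgbl1 were under 1 CPM in every library.

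Of the 22 called genes, 11 were called in the same direction in all 16 alternatives. They were Itgam, Itgb2, Itgax, Itgal and Itga4 among leukocyte integrins, Itga9, Itga6, Itgb3, Itga1 and Itga5 among matrix integrins, and Lama4 among laminins.

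**Figure D5:**
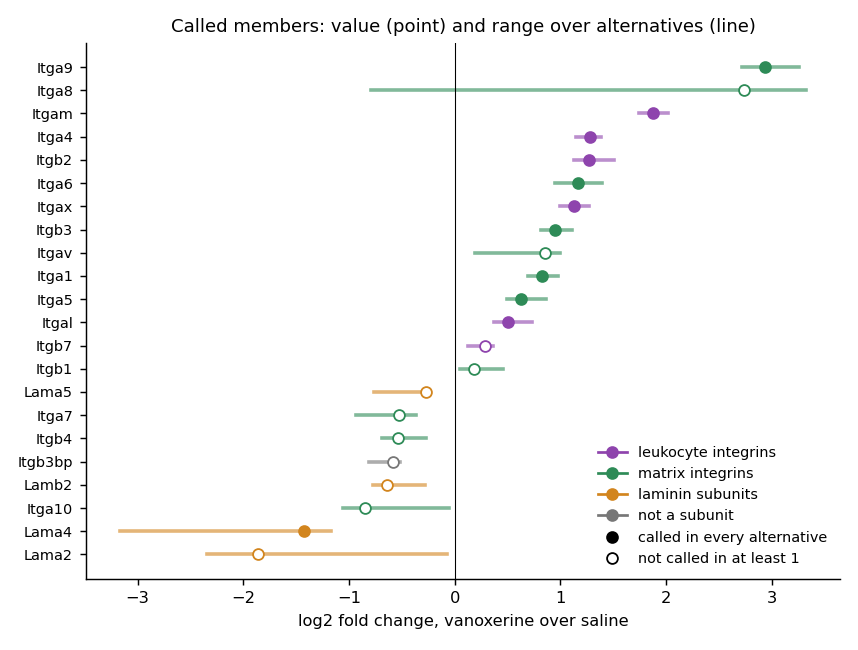
Log2 fold change of vanoxerine over saline for the 22 called genes (points) with the lowest and highest value over the alternatives (lines), filled where every alternative kept the call. Itga9 ranged from 2.72 to 3.26 and Lama4 from -3.17 to -1.18, while the range of Itga8 crossed 0.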

How the data were processed

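Snap-frozen tumours were profiled whole with the TruSeq RNA v2 kit, per the labels' protocols. The submitters' processing notes name fastp, Salmon 1.3.0, DESeq2 and the build GRCm38, with settings and strand option not given in the sources used. Overlapping and antisense genes may therefore share reads. The authors deposited Salmon's estimated counts, not normalized, and TPM, scaled to transcript length and library total, for 140992 transcripts per library. The authors' deposited table holds, per the file headers, a base mean (a signal averaged over libraries), a log2 fold change with its SE, and p-values raw and adjusted. Its 4 columns of FPKM in single libraries match no sample by name and were not used.

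Genes were taken from GENCODE mouse release 21 on GRCm38, without version numbers. Of 140992 transcripts 1201 had no gene there, and 99.56% to 99.63% of reads did. Estimated counts were summed per gene and rounded. Salmon shares reads among similar transcripts by estimate, so values of single transcripts are less certain than gene sums. Total reads were 70564325 and 67289273 in vanoxerine and 75748162 and 70274527 in saline. The test was the quasi-likelihood fit of edgeR (version 4.0.16, R version 4.3.3) with TMM scaling, its default count filter (minimum count 10, minimum total 15) and Benjamini-Hochberg adjustment over all 18758 genes tested, at 0.05. The code was also run on simulated counts with the same spread in both groups. The real groups differ in spread, so that run does not test the calls made here. SE was taken from the test's F statistic.

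Members and lists were chosen with earlier results of these data known. Values in every library are given for members with a mean TPM of at least 1, a call, a fold of at least 1.5 and groups that do not overlap, and for their partner chains. Of the members 1 is counted but not reported here. Of each list of ligands, adaptors and basement membrane partners the 4 genes with the highest mean TPM are named. Marker lists of Schwann cells (1 higher of 2 tested) and of epithelium (3 higher and 1 lower of 6 tested) were also counted. Alternatives were 3 scalings (library totals, upper-quartile factors and median-of-ratios factors), DESeq2 1.42.0, limma-voom (limma 3.58.1), limma-trend on log2(TPM + 1), an offset for average transcript length, no count filter, a filter at 1 CPM, a threshold of 0.1, protein-coding genes alone, a replicate block, and each library left out. The length limit of 2000 bases was chosen after the data were seen.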

Additional observations from a re-analysis of the deposited data

How the results depend on the processing

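Of the single-gene values recomputed, 591 kept their side of the threshold, 40 lost a call, 14 gained one and 2 reversed. Both reversals were Itga8 (-0.79 with the transcript length offset, -0.12 with log2(TPM + 1), from 2.74). A change of sign was counted as a reversal only where the gene was called in either setting. Some genes called in neither changed sign and are among the 591, such as Itgb5 with upper-quartile factors (-0.05, from 0.085). With the length offset the calls were 4305 over all genes, 7 matrix integrins and 2 laminin chains. With log2(TPM + 1) they were 14 over the integrin and laminin genes, 7 matrix integrins and 1 laminin chain. Leaving out each library in turn gave 3107 to 9708 calls over all genes (6916 with all libraries), 13 to 27 over the integrin and laminin genes (22), 5 to 8 leukocyte integrins (6), 6 to 12 matrix integrins (11) and 2 to 5 laminin chains (4). A group cut to 1 library was taken to spread as the other group does, and the fewest calls came without a vanoxerine library. The summed TPM of vanoxerine over saline was 2.37 for leukocyte integrins, 1.47 for matrix integrins and 0.874 for laminin chains. Over transcripts of at least 2000 bases these ratios were 2.71, 1.53 and 1.18, and without 1 library they ranged from 2.35 to 2.40, from 1.43 to 1.51 and from 0.787 to 0.960. By summed CPM, leukocyte integrins had 1254 and 1254 in vanoxerine and 529 and 552.5 in saline. Matrix integrins had 1391 and 1389 against 1045 and 1024, and laminin chains 388 and 353 against 392 and 393. TPM folds can exceed CPM folds. Itgb3, with 100% of its reads on Itgb3-201, averaged 122 CPM and 20.0 TPM in vanoxerine and 63.1 CPM and 8.71 TPM in saline. Relative to the main scaling the median log2 fold change of all genes shifted by -0.13 with upper-quartile factors and by 0.14 with log2(TPM + 1), so folds on those scales carry that shift. The cause of these differences was not tested.

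Same-numbered libraries did not deviate together (r = -0.03 over 9873 genes), so no pairing by number was seen. A weak pairing could be missed, because replicates lay close to each other. With the replicate block 6391 genes were called over all genes, 20 integrin and laminin genes (14 higher, 6 lower), 6 leukocyte integrins, 9 matrix integrins and 4 laminin chains.

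With 2 libraries per group the spread rests on few values, and how depth limits calls of low genes was not tested.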
